A study of Mus musculus with 36 samples.

Results

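Genic piRNA clusters are piRNA source loci named after a gene. They were taken as every cluster name in the small RNA tables that begins with pi-, with the final transcript number dropped, which gave 114 of 215 clusters, the other 101 being intergenic clusters named after a chromosome band. All 114 names are also among the 24626 rows of the RNA-seq tables, where they stand for the precursor RNA. In eCLIP, exon windows carried the names of all 114 clusters and intron windows those of 112.

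The samples are from mouse testis, which the labels describe as male germ cells. RNA-seq compared wild-type with D1Pas1 knockout testes, 3 libraries each, on postnatal day 14 (P14), day 18 (P18) and day 28 (P28). Small RNA, labelled b-elimination after a chemical treatment that spares piRNAs with their methylated ends, was sequenced in 3 wild-type and 3 knockout samples whose age is not labelled. RNA cross-linked by UV light to D1PAS1, a germ-cell DEAD-box RNA helicase, was read by eCLIP in 3 precipitates (IP) and 3 size-matched inputs, all labelled KI for genotype. The labels name neither the knock-in allele and its tag nor how the knockout was made, and do not say that samples are separate animals, so every p-value speaks only of the spread among the libraries at hand.

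piRNAs are small RNAs bound by PIWI proteins, which they guide to transposons and other transcripts in the male germ line. They are cut from long single-stranded precursors that are made by RNA polymerase II. In mouse, one set of precursors is made from before meiosis onward, many of them mRNAs of ordinary genes, while another is switched on in pachytene spermatocytes by the transcription factor A-MYB (Mybl1). A genic cluster can belong to either set.

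The host gene promoters of 5 clusters are printed because these clusters were among the 5 largest piRNA falls (pi-Arhgap20, pi-Cdc42ep3, pi-Mgll) or the 5 largest rises (pi-Hjurp, pi-Zfp866). Sequences are from RefSeq on GRCm38.p6, from 250 bases before to 50 bases after a listed start of the gene. For pi-Hjurp that start lies inside the gene's span (88258856 to 88277644) and not at its end. Capitals mark CAACNG, or CNGTTG where it lies on the other strand, a core shared by sites of MYB-family factors.
pi-Arhgap20, chr9:51765101-51765400, plus strand: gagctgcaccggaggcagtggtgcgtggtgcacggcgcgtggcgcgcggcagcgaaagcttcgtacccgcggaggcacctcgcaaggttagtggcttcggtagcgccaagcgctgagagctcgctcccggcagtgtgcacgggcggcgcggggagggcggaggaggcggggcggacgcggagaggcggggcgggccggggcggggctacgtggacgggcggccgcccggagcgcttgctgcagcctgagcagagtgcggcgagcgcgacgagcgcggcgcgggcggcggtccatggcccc
pi-Cdc42ep3, chr17:79355042-79355341, minus strand: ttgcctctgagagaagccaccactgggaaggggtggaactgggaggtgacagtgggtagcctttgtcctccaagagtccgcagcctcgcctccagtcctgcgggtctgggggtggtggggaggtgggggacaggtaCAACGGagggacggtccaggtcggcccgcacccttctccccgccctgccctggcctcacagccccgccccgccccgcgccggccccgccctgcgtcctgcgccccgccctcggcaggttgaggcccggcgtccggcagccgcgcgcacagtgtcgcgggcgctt
pi-Mgll, chr6:88724162-88724461, plus strand: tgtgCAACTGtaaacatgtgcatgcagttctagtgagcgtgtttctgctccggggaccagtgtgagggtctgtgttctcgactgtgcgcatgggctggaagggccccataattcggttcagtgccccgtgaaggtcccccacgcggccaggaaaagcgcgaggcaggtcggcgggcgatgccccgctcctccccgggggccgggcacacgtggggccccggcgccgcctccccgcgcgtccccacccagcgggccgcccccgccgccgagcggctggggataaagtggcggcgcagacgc
pi-Hjurp, chr1:88277530-88277829, minus strand: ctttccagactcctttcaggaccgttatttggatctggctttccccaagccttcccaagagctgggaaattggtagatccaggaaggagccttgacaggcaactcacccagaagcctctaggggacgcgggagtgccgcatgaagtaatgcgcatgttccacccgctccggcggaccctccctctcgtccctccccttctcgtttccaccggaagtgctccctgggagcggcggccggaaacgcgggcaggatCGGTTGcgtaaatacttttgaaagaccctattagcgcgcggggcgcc
pi-Zfp866, chr8:69774862-69775161, minus strand: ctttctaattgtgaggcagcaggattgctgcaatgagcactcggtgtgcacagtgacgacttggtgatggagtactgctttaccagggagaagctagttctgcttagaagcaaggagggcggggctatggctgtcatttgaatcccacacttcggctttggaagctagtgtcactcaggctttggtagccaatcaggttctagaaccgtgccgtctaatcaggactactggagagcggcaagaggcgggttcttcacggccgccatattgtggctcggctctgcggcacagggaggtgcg
Across RefSeq, 35% of 32851 promoters of this length held the motif, and 38.5% of 104 promoters of the genic clusters' hosts did (85 genes matched). Among hosts of clusters whose piRNAs fell in the knockout it was in 6 of 8 promoters (75%), which belong to 6 genes and include 2 promoters of Mgll, and among hosts of clusters whose piRNAs rose in 20 of 58 (34.5%). The files do not give where a cluster's precursor starts, so the host's start may not be the cluster's own. A match is a string of letters and no measured site.

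D1Pas1 mRNA, the check of the labels, was lower in every knockout library than in every wild-type library at each age, with a log2 fold change of -1.28 ± 0.14 at P14 (SE, edgeR's quasi-likelihood test, adjusted p = 0.086), -2.14 ± 0.29 at P18 (9.74e-04) and -2.74 ± 0.31 at P28 (1.81e-04). RNA-seq libraries held 16.05 to 40.93 M estimated counts, and eCLIP libraries 0.307 to 11.01 M window counts, of which the 3 precipitates had 0.435, 0.417 and 0.307 M. Markers of other testis cells were present under the male germ cell label: 6 Sertoli markers summed to 206.7 to 1609 counts per M (CPM) in wild type over the 3 ages. In bulk samples, fewer cells of a type and less RNA per cell cannot be told apart.

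Small RNA libraries differed within both groups. Wild-type library 3 had the highest signal of its group in 94 of the 114 genic clusters and lay above knockout library 1 in 67. Wild-type library 2 was the lowest of its group in 86. Knockout library 1 was the lowest of its group in 94, and knockout library 2 the highest in 95. Genic clusters took 4.7%, 4.27% and 7.91% of the signal over all clusters in wild-type libraries 1 to 3, and 8.16%, 11.84% and 10.01% in knockout libraries 1 to 3. The share was higher in each knockout library than in each wild-type library, with wild-type library 3 close to knockout library 1. Counts of piRNA calls are given with and without wild-type library 3. Other piRNA values are from all small RNA libraries unless stated.

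piRNA signal rose in the knockout for 61 genic clusters and fell for 9. These counts are 53.5% and 7.89% of the members, beside 30.7% and 38.1% of all 215 clusters in the same test (limma on log2 of the authors' normalized signal + 1, two-sided, adjusted p under 0.05 over all clusters). The median log2 difference, knockout minus wild type, was 1.29 (quartiles 0.50 and 1.56), while the median over all clusters was 0.06. Of the 101 intergenic clusters 5 rose and 73 fell, with a median of -0.70. Most rises sat at the edge of the threshold: 59 of the 70 calls, 57 of them rises, had an adjusted p from 0.04 to 0.05, and 12 clusters lay just outside it, from 0.05 to 0.06. Leaving out wild-type library 3 gave 93 rises and 14 falls, and leaving out any other single library gave 0 or 1 rises and 3 to 6 falls. By rank alone, every knockout library was above every wild-type library in 43 clusters (37.7%, beside 22.8% of all clusters) and below in 14 (12.3%, beside 42.3%). The rises are therefore given as a direction over many clusters, and single rises as values near the threshold.

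**Figure D1:**
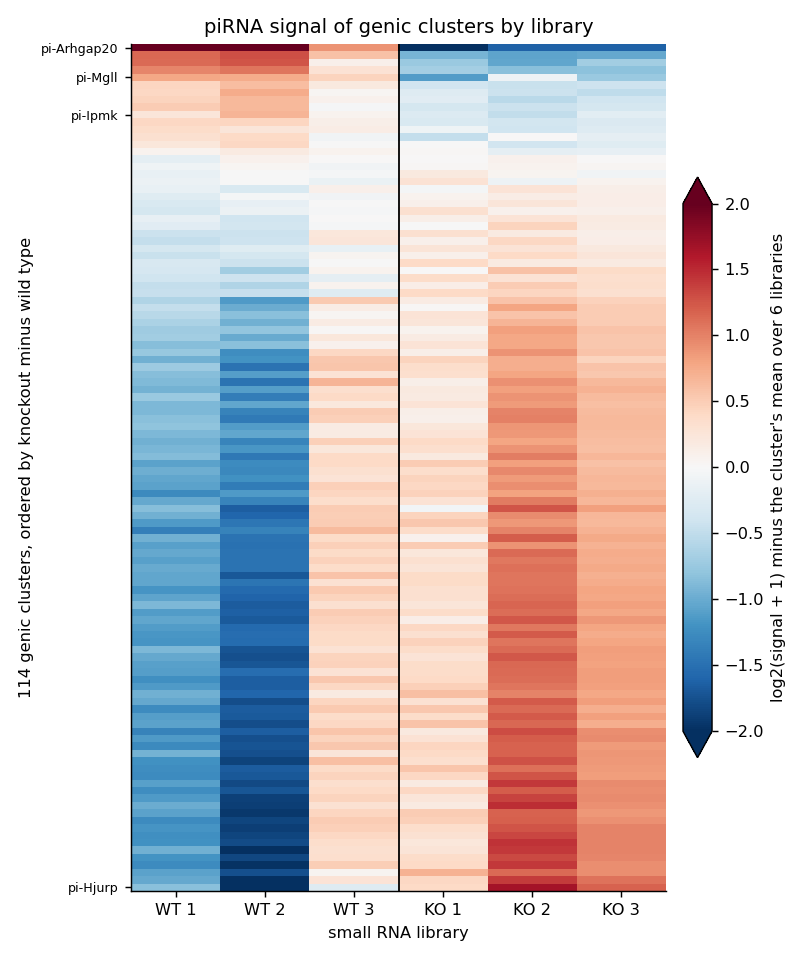
Each row is a genic cluster and each column a small RNA library; colour is log2(signal + 1) minus the cluster's mean over the 6 libraries, with values beyond 2 in either direction drawn at the end colour. Clusters with less signal in the knockout are at the top, and in the lower rows wild-type library 3 lies nearer the knockout libraries than wild-type libraries 1 and 2 do.

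The largest fall was in pi-Arhgap20 (host gene on chromosome 9, 51765351 to 51853059, GRCm38), named after a GTPase-activating protein. Its signal was 174.87, 251.25 and 75.8 in wild-type libraries 1 to 3 and 7.08, 12.53 and 12.53 in the knockout libraries. Groups did not overlap, and the log2 difference was -3.72 ± 0.50 (SE, limma, adjusted p = 0.00319). pi-Gm5878 (chromosome 6, 85111415 to 85126094), whose host is a predicted gene, had the highest mean signal of all genic clusters in wild type. It was at 3130.98, 3457.61 and 2136.92 in wild type and at 741.23, 680.93 and 696.15 in the knockout, a log2 difference of -2.01 ± 0.19 (limma, adjusted p = 0.00178). Even the lowest wild-type library was far above the highest knockout library.

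The other falls were smaller. pi-Wdfy3, named after a scaffold protein of selective autophagy, had signals of 221.27, 241.68 and 108.58 in wild type and 59.87, 48.48 and 61.58 in the knockout (log2 difference -1.66 ± 0.39, limma, adjusted p = 0.0169). pi-Cdc42ep3, named after an effector of the small GTPase CDC42, had 22.71, 24.4 and 13.74 in wild type and 6.49, 5.74 and 5.86 in the knockout (-1.56 ± 0.25, limma, adjusted p = 0.00487). pi-Mgll, named after monoacylglycerol lipase, had 44.23, 43.2 and 34.72 in wild type and 11.16, 23.45 and 14.77 in the knockout (-1.31 ± 0.32, limma, adjusted p = 0.0188). In none of them did the groups overlap, and in all 3 wild-type library 3 was the lowest of its group. The remaining 4 falls were pi-Asb1 (-0.82), pi-Kctd7 (-0.78), pi-Tbl2 (-0.76) and pi-1700006A11Rik (-0.50), again without overlap. For pi-1700006A11Rik the fall was -0.21 (limma, adjusted p = 0.0658) when signals were divided by each library's total over all clusters. Of the 5 largest falls, pi-Wdfy3 and pi-Mgll lost their call without some single libraries, with adjusted p-values up to 0.0832 for pi-Wdfy3 and 0.107 for pi-Mgll.

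The largest rise was in pi-Hjurp, named after the chaperone that loads the centromeric histone CENP-A. Its signal was 84.23, 32.99 and 125.64 in wild type and 198.67, 482.27 and 343.32 in the knockout, a log2 difference of 2.17 ± 0.57 (limma, adjusted p = 0.0241). pi-Rplp1, named after a ribosomal stalk protein, had 43.99, 19.64 and 109.57 in wild type and 120.2, 240.25 and 191.89 in the knockout (1.93 ± 0.64, limma, adjusted p = 0.0474). In both, the groups did not overlap and knockout library 1 was the lowest of its group, only slightly above wild-type library 3 in pi-Rplp1. pi-Zfp866, named after a zinc finger protein, had 69.38, 42.69 and 151.23 in wild type and 238.0, 322.96 and 280.97 in the knockout (1.85 ± 0.48, limma, adjusted p = 0.0235). pi-Zyg11a, named after a substrate receptor of a cullin ubiquitin ligase, had 128.11, 77.54 and 434.15 against 403.39, 816.92 and 588.94 (1.82 ± 0.64, limma, adjusted p = 0.0491). Here the groups overlapped, with wild-type library 3 above knockout library 1. pi-Ndst1, named after a heparan sulfate modifying enzyme, had 95.31, 61.94 and 278.39 against 285.7, 554.01 and 436.62 (1.79 ± 0.58, limma, adjusted p = 0.0458), with no overlap but a narrow gap. Each of these 5 lost its call when at least 1 library other than wild-type library 3 was left out.

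Of the 6 genic clusters with the highest wild-type signal, pi-Gm5878 among them, 3 did not pass the threshold. Signal is not known to be scaled to cluster length, so this order is one of signal and not of piRNA density. pi-Zfp382, named after a zinc finger protein, stood at 2020.69, 2163.48 and 2005.8 in wild type and at 1944.62, 1695.98 and 1718.35 in the knockout (-0.21 ± 0.10, limma, adjusted p = 0.0963). pi-Cbl, named after a ubiquitin ligase, stood at 1864.2, 2025.29 and 1886.91 against 2009.47, 2070.2 and 2039.05 (0.08 ± 0.09, limma, adjusted p = 0.409). pi-Eif2c2, which carries the older symbol of Argonaute 2, stood at 973.86, 1044.0 and 963.53 against 1290.55, 977.79 and 1100.14 (0.17 ± 0.14, limma, adjusted p = 0.292). In these 3 the libraries of both groups lay close together. Divided by library totals, pi-Cbl (0.38, adjusted p = 0.0142) and pi-Eif2c2 (0.46, adjusted p = 0.0165) passed it as higher, and pi-Zfp382 turned to 0.08. pi-1700006A11Rik fell from 1787.1, 1634.83 and 1529.81 to 1302.18, 1046.55 and 1160.51 (-0.50 ± 0.13, limma, adjusted p = 0.0233).

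Precursor RNA was then compared between genotypes at each age (edgeR's quasi-likelihood test, adjusted over all genes). At P14 no genic cluster passed the threshold, and 0% of 15922 genes did. At an unadjusted p under 0.05 there were 11 clusters among 948 genes, and DESeq2 called 1 cluster higher, pi-Socs7. The largest P14 difference was that of pi-Socs7, with 28.01, 35.96 and 27.29 CPM in wild type and 64.1, 54.29 and 60.18 CPM in the knockout (0.97 ± 0.11, edgeR, adjusted p = 0.086), without overlap. At P18 precursors of 13 clusters fell (11.4%, beside 15% of all genes) and 2 rose (1.75%, beside 3.19%). At P28, 22 fell (19.3%, beside 31.6%) and 25 rose (21.9%, beside 24.6%). By rank alone, knockout libraries were all above the wild type in 4 clusters at P14 (3.51%, beside 6.44% of all genes), 13 at P18 (11.4%, beside 15.8%) and 40 at P28 (35.1%, beside 33.4%), and all below in 12 (10.5%, beside 4.82%), 22 (19.3%, beside 22.4%) and 29 (25.4%, beside 35.2%). The members' shares thus lay near or under those of all genes, apart from the 10.5% at P14. The members' median log2 fold change was -0.06 at P14, 0.04 at P18 and 0.23 at P28, beside -0.00, -0.00 and 0.05 over all genes tested.

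These counts depend on scaling. With library totals in place of TMM factors the median over all genes shifted to 0.12 at P18 and 0.59 at P28, and the members gave 11 rises and 8 falls at P18, and 57 rises and 10 falls at P28. Single libraries also mattered at P18: falls dropped to 6 without the wild-type library numbered 8 and to 7 without the knockout library numbered 12, and rises were 0 without the wild-type library numbered 8, 1 without the knockout library numbered 11 or 12, 4 without that numbered 10 and 13 without the wild-type library numbered 9. At P28, rises dropped to 13 without the wild-type library numbered 2 and to 15 without the knockout library numbered 4.

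The largest precursor fall at P18 was that of pi-Gm5878. It stood at 26.67, 25.77 and 36.58 CPM in wild type and at 1.952, 5.884 and 3.48 CPM in the knockout, a log2 fold change of -2.97 ± 0.34 (edgeR, adjusted p = 4.16e-04). At P14 both genotypes were low, with 1.332, 2.951 and 1.167 CPM in wild type and 0.8551, 0.7467 and 1.239 CPM in the knockout. By P28 the knockout had reached 15.57, 18.03 and 14.46 CPM, still under the wild type at 33.92, 37.76 and 32.89 CPM (-1.12 ± 0.18, edgeR, adjusted p = 0.00126). The difference was therefore widest at P18 and narrower at P28. The change in genotype effect between these ages passed its own test (1.70, edgeR interaction, adjusted p = 0.0121). The row of the host gene Gm5878 had the same means as the cluster row at P18, 29.68 and 3.772 CPM, so it is no separate measurement.

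pi-Cdc42ep3 (host on chromosome 17, 79333723 to 79355091, GRCm38) followed the same course. At P14 it had 6.289, 6.925 and 3.162 CPM in wild type and 5.525, 6.94 and 7.528 CPM in the knockout. At P18 it had 81.83, 81.99 and 78.55 CPM against 10.33, 15.2 and 14.17 CPM (-2.61 ± 0.15, edgeR, adjusted p = 1.99e-05). At P28 it had 260.6, 227.1 and 197.9 CPM against 87.84, 99.21 and 94.67 CPM (-1.28 ± 0.18, edgeR, adjusted p = 5.86e-04). Wild-type values were far higher at P18 than at P14, and the knockout was far below them at P18 and less so at P28. Here the host row was separate: it fell at P18 (-1.02, edgeR, adjusted p = 1.46e-04) and was at 5.039 and 5.845 CPM in wild type and knockout at P28.

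pi-Mgll was lower in the knockout from P18 on. It had 15.67, 16.89 and 25.07 CPM in wild type and 7.349, 6.754 and 6.153 CPM in the knockout at P18 (-1.51 ± 0.20, edgeR, adjusted p = 0.00103). At P28 it had 19.17, 54.62 and 36.41 CPM against 15.12, 9.384 and 7.499 CPM (-1.78 ± 0.41, edgeR, adjusted p = 0.00777). The groups were apart at both ages, by a small gap at P28. pi-1700016M24Rik (host Mroh4) had 389.1, 404.9 and 437.4 CPM in wild type and 128.1, 196.7 and 162.9 CPM in the knockout at P18 (-1.34 ± 0.16, edgeR, adjusted p = 4.69e-04). Its piRNA signal did not follow: 210.62, 178.91 and 237.94 in wild type and 255.56, 285.5 and 268.71 in the knockout (0.37 ± 0.23, limma, adjusted p = 0.167). pi-Pou6f1, named after a POU-domain transcription factor, had 122.2, 128.3 and 118.2 CPM against 42.48, 60.58 and 57.84 CPM at P18 (-1.20 ± 0.14, edgeR, adjusted p = 4.69e-04), and its piRNA difference was -0.43 ± 0.28 (limma, adjusted p = 0.184). For both clusters precursor groups were far apart while the piRNA call was absent. The other falls at P18 were pi-1700006A11Rik (-1.19), pi-Wdfy3 (-0.69), pi-Mlc1 (-0.67), pi-Ip6k1 (-0.57), pi-Exoc8 (-0.50), pi-Kctd7 (-0.45), pi-Tbl2 (-0.42) and pi-Gtf3c4 (-0.38). The call of pi-Wdfy3 was lost without the wild-type library numbered 8 (adjusted p = 0.0671) and without the knockout library numbered 12 (adjusted p = 0.0683).

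The 2 precursors that rose at P18 were pi-Tfcp2l1, named after a transcription factor, and pi-Bend4. pi-Tfcp2l1 had 17.22, 18.26 and 18.55 CPM in wild type and 24.51, 25.17 and 32.33 CPM in the knockout (0.60 ± 0.14, edgeR, adjusted p = 0.0181). pi-Bend4 had 106.9, 104.7 and 112.3 CPM against 156.5, 152.9 and 130.2 CPM (0.44 ± 0.10, edgeR, adjusted p = 0.0197). Neither overlapped between groups, and both clusters also had a rise in piRNA signal (1.55 and 1.64). Neither call held without the wild-type library numbered 8, where no member was called higher.

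**Figure D2:**
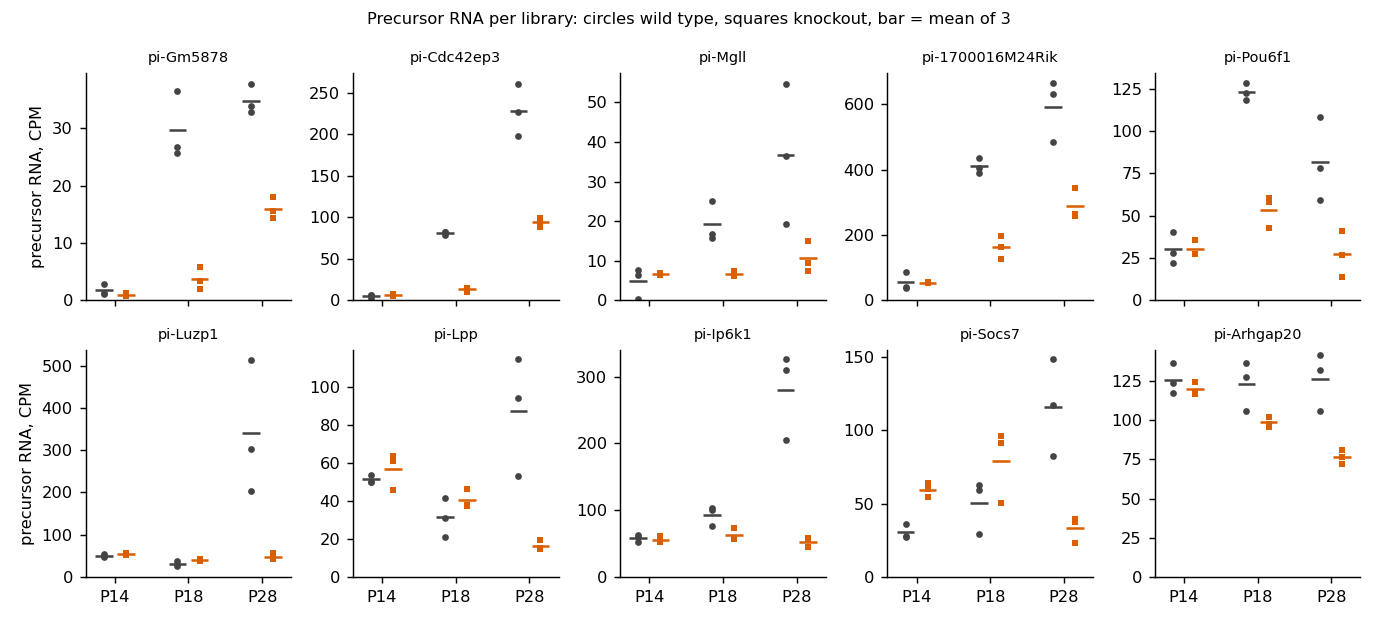
Precursor RNA in CPM (linear axis from 0) per library at P14, P18 and P28 for 10 genic clusters; circles are wild type, squares knockout, bars the mean of 3 libraries. In the upper row the groups part at P18; in pi-Luzp1, pi-Lpp and pi-Socs7 the knockout falls below the wild type only at P28, while pi-Ip6k1 and pi-Arhgap20 show smaller differences at P18.

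The genotype effect itself was compared between ages as an interaction. It was lower at P18 than at P14 for 5 clusters (4.39%, beside 11.2% of all genes) and higher for 3 (2.63%, beside 2.7%). It was lower at P28 than at P18 for 11 (9.65%, beside 17.1%) and higher for 7 (6.14%, beside 5.52%). pi-Cdc42ep3 and pi-Gm5878 were in the first group of 5 and in the last group of 7.

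The 5 largest falls at P28 were those of pi-Luzp1, pi-Lpp, pi-Ip6k1, pi-Socs7 and pi-Mgll, of which pi-Ip6k1 and pi-Mgll had also fallen at P18. pi-Luzp1, named after a leucine zipper protein of the cytoskeleton, had 513.1, 302.3 and 202.9 CPM in wild type and 42.76, 42.42 and 55.74 CPM in the knockout (-2.85 ± 0.35, edgeR, adjusted p = 3.17e-04). At P18 it had 25.18, 29.58 and 37.29 CPM against 42.54, 37.71 and 36.76 CPM (0.34 ± 0.15, edgeR, adjusted p = 0.164). Wild-type values were thus far higher at P28 than at P18, and knockout values near those at P18. pi-Lpp, named after a LIM-domain protein of focal adhesions, had 114.6, 94.07 and 53.04 CPM against 19.47, 15.12 and 14.67 CPM at P28 (-2.41 ± 0.30, edgeR, adjusted p = 3.45e-04). pi-Ip6k1, named after an inositol hexakisphosphate kinase, had 326.3, 310.3 and 205.5 CPM against 58.68, 55.22 and 44.78 CPM (-2.41 ± 0.24, edgeR, adjusted p = 9.54e-05). pi-Socs7, named after a suppressor of cytokine signalling, had 148.8, 117.1 and 82.28 CPM against 37.4, 39.79 and 23.22 CPM (-1.79 ± 0.29, edgeR, adjusted p = 0.0014). In these 4 clusters, pi-Mgll being given above, the lowest wild-type library was well above the highest knockout library.

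The piRNA signal of these 4 clusters did not fall. It was higher in the knockout for pi-Luzp1 (1.47, adjusted p = 0.0491), pi-Lpp (1.57, adjusted p = 0.0486) and pi-Socs7 (1.58, adjusted p = 0.0294), and 0.88 (adjusted p = 0.0683) for pi-Ip6k1, by limma. In all, 8 of the 22 clusters whose precursor fell at P28 had a rise in piRNA signal (36.4%, beside 53.5% of all genic clusters): pi-Atxn1l, pi-Ctdsp2, pi-Dcaf7, pi-Eya3, pi-Gtf3c4, pi-Lpp, pi-Luzp1 and pi-Socs7. The age of the small RNA samples is not labelled, so these are not comparisons at a matched age. The row of the host also fell for Luzp1 (-1.75, adjusted p = 2.48e-04) and Lpp (-1.78, adjusted p = 0.00818), and did not pass for Ip6k1 (-0.37, adjusted p = 0.247) or Socs7 (-0.16, adjusted p = 0.442), by edgeR.

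Among the 25 precursors that rose at P28 the largest log2 fold changes were those of pi-Cmtm4 (1.44), pi-Zdhhc23 (1.33), pi-Mafg (1.25) and pi-Elk4 (1.20). pi-Elk4, named after an ETS-family transcription factor, had 56.88, 69.7 and 93.45 CPM in wild type and 180.1, 162.5 and 163.3 CPM in the knockout (1.20 ± 0.21, edgeR, adjusted p = 0.00228). It had stood at 104.7, 94.52 and 135.7 CPM against 120.4, 147.6 and 143.7 CPM at P18. The wild-type level was lower at P28 than at P18, while the knockout level was not. Clusters named after the DNA methyltransferase Dnmt3a (0.96), the 5-methylcytosine oxidase Tet3 (0.90) and the histone methyltransferase Nsd1 (0.76) rose as well. These genes beyond the fixed naming rule were chosen after their values were seen.

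Changes of the testis as a whole stood beside these. At P18, 7 of 8 pachytene spermatocyte markers fell, with a summed level of 2787 to 3440 CPM in wild type and 1087 to 1267 CPM in the knockout, and 2 of 3 tested round spermatid markers fell. At the same age 0 of 6 spermatogonial, 6 Sertoli, 5 Leydig and 4 macrophage markers passed the test. At P28, 6 of 8 pachytene markers fell and 1 rose, and 8 of 8 round spermatid and 6 of 6 elongating spermatid markers fell, the latter from 9524 to 13595 CPM in wild type to 5.026 to 82.18 CPM in the knockout. Also at P28, 6 of 6 Sertoli markers rose (206.7 to 306.9 CPM in wild type, 453.8 to 535.4 CPM in the knockout), as did 5 of 5 Leydig markers (2199 to 3719 CPM, 7301 to 10843 CPM), 3 of 4 macrophage markers and 3 of 6 spermatogonial markers. The part of these shifts in the precursor results was not tested.

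Genes of the piRNA pathway were read from a list. Of 27 listed genes in the test, 0 passed at P14, 13 fell and 0 rose at P18, and 8 fell and 2 rose at P28. Over all genes 15% fell and 3.19% rose at P18, and 31.6% fell and 24.6% rose at P28, so the listed genes' shares at P28 were not above these. Piwil1, the PIWI protein of pachytene spermatocytes and spermatids, fell at P18 from 609.3 ± 81.8 CPM (SD, n = 3 libraries) to 263.6 ± 67.4 CPM (edgeR, adjusted p = 0.00284), and at P28 its log2 fold change was 0.03 (adjusted p = 0.897). Tdrd6, a tudor protein of the spermatid's chromatoid body, went from 295.4 ± 34.7 down to 38.54 ± 14.8 CPM at P18 (edgeR, adjusted p = 1.42e-04). Henmt1, which methylates piRNA 3' ends, fell from 34.90 ± 0.181 to 12.69 ± 2.62 CPM (edgeR, adjusted p = 2.81e-04), and Pld6, the nuclease linked to piRNA 5' end formation, from 163.0 ± 37.0 to 61.46 ± 5.98 CPM (edgeR, adjusted p = 5.65e-04). Mybl1 had 215.7 ± 13.2 CPM in wild type and 193.7 ± 18.0 CPM in the knockout at P18 (edgeR, adjusted p = 0.369). Tcfl5, a transcription factor that acts with A-MYB at pachytene genes, fell from 233.3 ± 24.97 to 146.1 ± 20.9 CPM (edgeR, adjusted p = 0.00837). By log2 fold change, Piwil2 (-0.21, edgeR, adjusted p = 0.245) and Mov10l1 (-0.03, adjusted p = 0.879) did not pass at P18. Nor did Pnldc1 (-0.17, edgeR, adjusted p = 0.418) or Btbd18 (0.43, adjusted p = 0.0541). Btbd18 was among the 2 rises at P28 (1.00, edgeR, adjusted p = 0.00741). Tdrd6 was named beyond the fixed naming rule.

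Precursor and piRNA were next set side by side. Of the 9 clusters whose piRNAs fell, 7 also had a precursor fall at P18. These are 77.8% of the 9, beside 11.4% of all genic clusters with such a precursor fall. They are 53.8% of the 13 precursor falls, beside 7.89% of all genic clusters with a piRNA fall. The 7 were pi-1700006A11Rik, pi-Cdc42ep3, pi-Gm5878, pi-Kctd7, pi-Mgll, pi-Tbl2 and pi-Wdfy3. The other 2 were pi-Arhgap20 and pi-Asb1, whose precursors fell only at P28 by these calls. pi-Arhgap20 had 106.0, 136.5 and 127.5 CPM in wild type and 102.2, 95.57 and 97.84 CPM in the knockout at P18 (-0.32 ± 0.11, edgeR, adjusted p = 0.0883), and 105.9, 141.5 and 131.7 CPM against 76.19, 81.27 and 71.92 CPM at P28 (-0.73 ± 0.17, edgeR, adjusted p = 0.00902). Its piRNA fall of 3.72 on the log2 scale was thus far larger than its precursor difference at any age, and with library totals as scaling the P28 value was -0.20 (adjusted p = 0.439). pi-Asb1 had 87.85, 69.3 and 62.55 CPM against 68.09, 70.61 and 77.51 CPM at P18, with overlap, and 71.73, 87.98 and 75.01 CPM against 41.68, 46.13 and 42.47 CPM at P28 (-0.85 ± 0.16, edgeR, adjusted p = 0.00307).

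Of the 61 clusters whose piRNAs rose, 21 had a precursor rise at P28. These are 34.4% of the 61, beside 21.9% of all genic clusters with such a precursor rise. They are 84% of the 25 precursor rises, beside 53.5% of all genic clusters with a piRNA rise. The 61 also hold both clusters with a precursor rise at P18. pi-Gtf3c4 was the one cluster with a piRNA rise and a precursor fall at P18. Across the 114 clusters the piRNA difference and the precursor log2 fold change had Pearson's r of 0.10 and Spearman's coefficient of 0.05 at P14, 0.65 and 0.62 at P18, and 0.34 and 0.38 at P28. Clusters are no independent replicates: within an assay all points come from the same 6 libraries, so these values are descriptions.

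**Figure D3:**
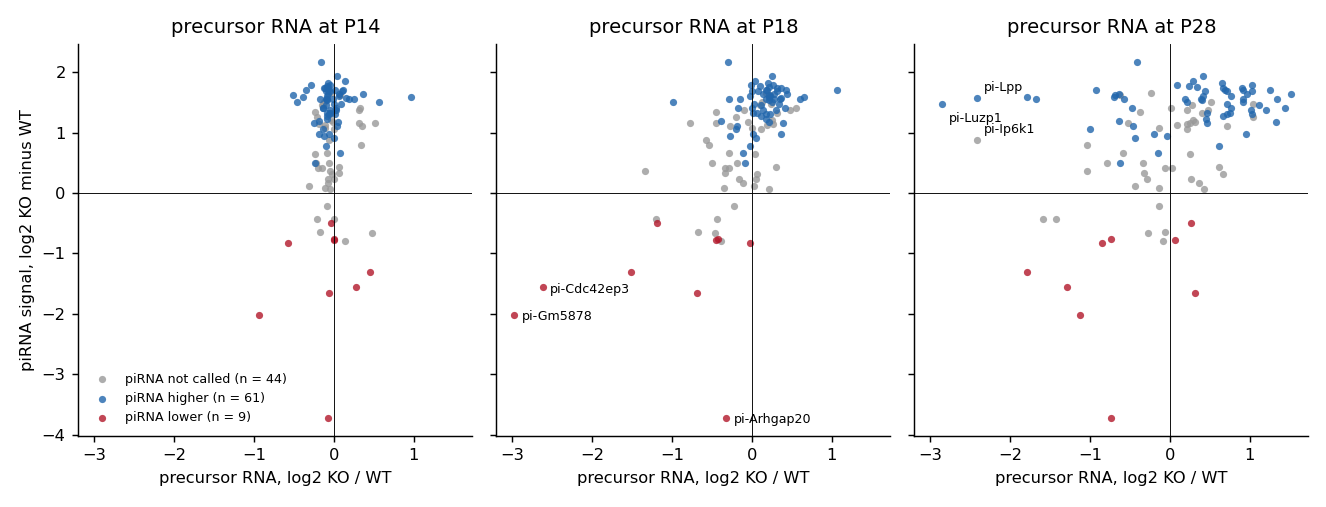
Each point is a genic cluster; the x axis is the precursor log2 fold change (knockout over wild type) at the age named above each panel and the y axis the piRNA log2 difference, with colour by piRNA call (9 lower, 61 higher, 44 not called). Points lie in a vertical band at P14 and spread along the diagonal at P18; at P28 pi-Luzp1, pi-Lpp and pi-Ip6k1 lie at upper left.

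The course of the wild-type precursor differed with the piRNA call. From P14 to P18 the median log2 change in wild type was 1.82 for the 9 clusters with a piRNA fall (from -0.29 to 3.72), -0.41 for the 61 with a rise and -0.09 for the 44 not called. The precursor was higher at P18 than at P14 in 7 of the 9, 10 of the 61 and 19 of the 44. In the knockout the medians were 0.38, -0.18 and -0.06. By P28 the wild-type level was down by more than 1 log2 unit from P14 in 33 of the 61 clusters with a piRNA rise and in 0 of the 9 with a fall. Across the 114 clusters the piRNA difference and the wild-type precursor change from P14 to P18 had Pearson's r of -0.66 and Spearman's coefficient of -0.69, and with the change to P28 -0.53 and -0.54. Each age is a table of its own and may be its own batch, so age and batch cannot be told apart. CPM were scaled within each age alone, and the share of all genes with such courses was not computed. In wild type, 6 Sertoli markers also summed to 1378 to 1609 CPM at P14 and to 206.7 to 306.9 CPM at P28. The part of such general shifts in these courses was not tested.

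**Figure D4:**
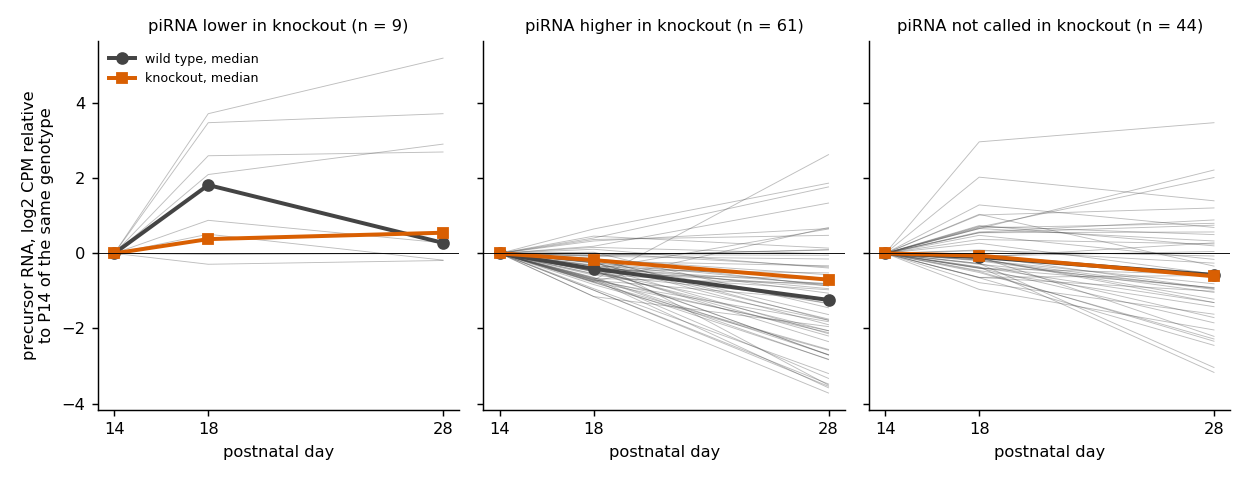
Change of precursor RNA in log2 CPM from P14 of the same genotype, by postnatal day, in 3 panels by piRNA call; thin lines are single clusters in wild type, thick lines the medians (circles wild type, squares knockout). The median of the 9 clusters with a piRNA fall lies at 1.82 in wild type and at 0.38 in the knockout at P18.

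For 112 clusters the host gene has a row under its own name. Of these host rows, 102 were tested at P14, 101 at P18 and 101 at P28. The cluster row was the higher of both in 62, 60 and 68 of the tested pairs. Cluster and host were called in the same direction for 6 clusters at P18 and for 21 at P28, and in opposite directions for 0 and 2. The same-direction counts include pi-Gm5878 at both ages and pi-Hic2 at P28, whose host rows had the same means as the cluster rows. The sources used here do not say how reads that both rows could claim were divided, so host rows are no independent support.

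In eCLIP, few genic clusters carried enough events to be tested. In exon windows 27 of 114 passed the filter on low counts, and in intron windows 65. Exon windows were enriched in the precipitates for 6 (22.2% of those tested, beside 26.4% of all exon features) and depleted for 2 (7.41%, beside 16.6%). Intron windows were enriched for 5 (7.69%, beside 6.49% of all intron features) and depleted for 4 (6.15%, beside 8.2%). These shares lay near or under those of all features. An event is counted in each sliding window that covers it, so the sums given next exceed the number of events. With overlapping windows left out, 2 exon and 2 intron enrichments were called.

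The strongest of these by adjusted p was the intron signal of pi-Hmbox1 (host on chromosome 14, 64811600 to 64949899, GRCm38), named after a telomere-binding homeobox protein. Its intron windows summed to 55, 593 and 805 in the inputs and to 71, 126 and 64 in the precipitates, or 95.4, 86.22 and 82.73 against 210.0, 367.0 and 261.8 CPM after TMM scaling. Groups did not overlap, and the log2 difference was 1.68 ± 0.25 (SE, edgeR, adjusted p = 0.00183). Intron 5 held 63.4%, 83.3% and 60.9% of the sum in the precipitates, and its highest window was the same or the neighbouring one in all 3. In the inputs the highest window lay in intron 6 or 3.

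pi-Rad54l2, named after a helicase-like protein of the SNF2 family, was enriched in introns and exons. Intron windows had 15.61, 54.09 and 42.03 CPM in the inputs and 162.6, 183.5 and 225.0 in the precipitates (2.23 ± 0.36, edgeR, adjusted p = 0.00266). One window of intron 1 was the highest in all 3 precipitates, with 17, 16 and 14 counts, while the inputs peaked in intron 2. Exon windows had 8.672, 11.92 and 11.1 CPM against 44.36, 20.39 and 45.0 (1.71 ± 0.46, edgeR, adjusted p = 0.0257), from sums of only 15, 7 and 11 in the precipitates.

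Among the exon features pi-Gm5878, the cluster with the highest wild-type piRNA signal, had sums of 5, 64 and 48 in the inputs and 15, 11 and 15 in the precipitates. Scaled, these were 8.672, 9.306 and 4.933 against 44.36, 32.04 and 61.36 CPM (2.62 ± 0.48, edgeR, adjusted p = 0.00508). All counts in the precipitates lay in exon 3, which also held most of those in the inputs. pi-Tmem194 (host Nemp1, an inner nuclear membrane protein) had 10.41, 13.23 and 9.352 against 44.36, 46.61 and 61.36 (2.17 ± 0.40, edgeR, adjusted p = 0.00519), with most counts of the precipitates in exon 12. pi-Zfp346, named after a zinc finger protein that binds double-stranded RNA, had 6.938, 9.451 and 5.652 against 38.44, 37.87 and 200.5 (3.57 ± 0.68, edgeR, adjusted p = 0.00575). No input reached a precipitate in these 3, and precipitate 3 was far above the others in pi-Zfp346. The other enriched features were pi-Bcl2l13 (2.24) and pi-Eif2c2 (1.15) in exons and pi-Cbx5 (2.12), pi-Zbtb49 (1.70) and pi-Ip6k1 (1.52) in introns.

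In the depleted features other than pi-Ppp1r12b the counts of the inputs were piled up in few windows. pi-D730040F13Rik (host Tmem245) had intron sums of 280, 1853 and 1482 in the inputs and 17, 14 and 7 in the precipitates, or 485.6, 269.4 and 152.3 against 50.27, 40.78 and 28.64 CPM (-2.88 ± 0.45, edgeR, adjusted p = 0.00228). A single window of intron 1 was the highest in all 3 inputs, with 82, 466 and 305 counts. pi-Uhrf1bp1 had 100.6, 105.9 and 57.96 against 17.74, 17.48 and 0 CPM in introns (-2.77 ± 0.57, edgeR, adjusted p = 0.0083), and pi-Hjurp 69.38, 37.22 and 31.65 against 0, 0 and 12.27 (-3.70 ± 0.91, edgeR, adjusted p = 0.0182). Each of the 3 inputs peaked at the same window in either cluster, window 325 in pi-Uhrf1bp1 and window 665 in pi-Hjurp. pi-Ppp1r12b, named after a myosin phosphatase subunit, had 483.9, 302.3 and 252.9 against 147.9, 195.2 and 110.5 in introns (-1.17 ± 0.30, edgeR, adjusted p = 0.0224). Its input sums of 279, 2079 and 2461 were spread over 84, 562 and 632 windows, with 58, 329 and 303 counts in the highest. pi-Ankrd11, named after a chromatin regulator, had 353.8, 159.8 and 92.6 against 20.7, 61.17 and 24.55 in exons (-2.44 ± 0.57, edgeR, adjusted p = 0.0143), and pi-Zfp280b was at -2.91. The calls of pi-Hjurp, pi-Ppp1r12b and pi-Ankrd11 were lost without precipitate 1 and without 1 other precipitate, and that of pi-Ankrd11 also when overlapping windows were left out (-1.54, adjusted p = 0.13).

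**Figure D5:**
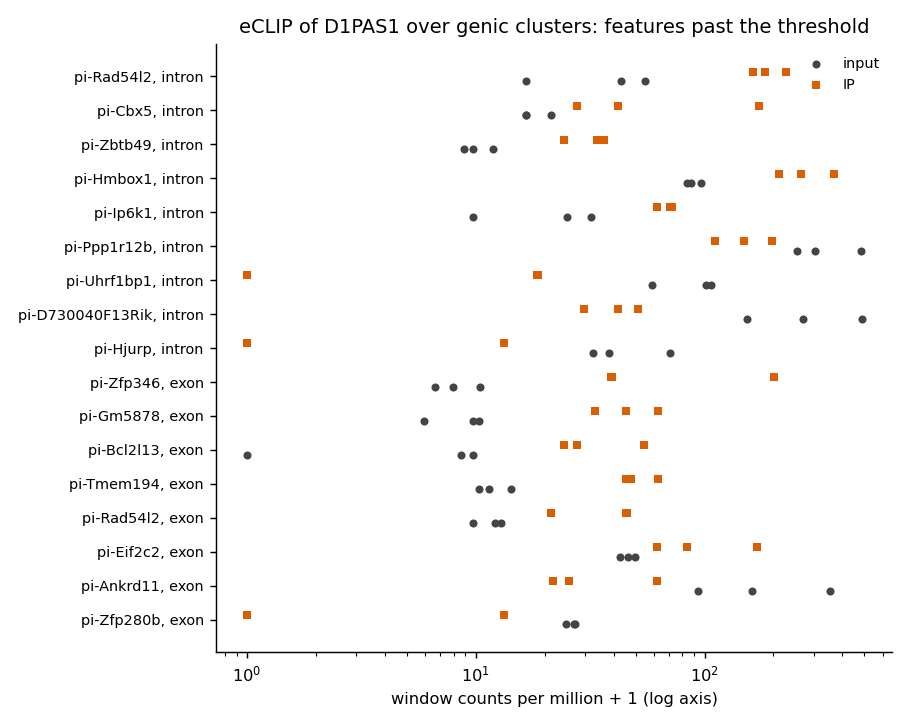
CPM of window counts + 1 (log axis) in the 3 inputs (circles) and 3 precipitates (squares) for each genic cluster feature that passed the threshold, exons and introns apart. The 6 exon and 5 intron enrichments have the precipitates at the right, and the 2 exon and 4 intron depletions at the left; points at 1 are libraries with 0 counts.

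Few clusters had both a binding call and a piRNA call, and only 27 of 114 were tested in exons and 65 in introns. Of the tested, 22.2% were enriched in exons and 7.69% in introns. Of the 9 clusters with a piRNA fall, pi-Gm5878 was enriched in exons. pi-Arhgap20, pi-Cdc42ep3, pi-Mgll, pi-Asb1, pi-Kctd7 and pi-1700006A11Rik were not tested there. Shares among the tested clusters of each piRNA call were not computed. Of the 61 with a rise, pi-Rad54l2 was enriched in exons and pi-Cbx5, pi-Hmbox1 and pi-Rad54l2 in introns, while pi-Ankrd11 was depleted in exons and pi-D730040F13Rik and pi-Hjurp in introns. Of the 6 exon-enriched clusters, out of 27 tested, pi-Bcl2l13, pi-Gm5878, pi-Tmem194 and pi-Zfp346 had a precursor fall at P28. Such a fall was seen in 19.3% of all genic clusters, but its share among the 27 was not computed. The 27 also held pi-1700016M24Rik, pi-Lpp, pi-Socs7 and pi-Tbl2, which had this fall and no exon enrichment. The 6 came down to 2 or 3 under several alternatives. For 111 clusters the host gene is also a feature of its own in eCLIP: exon sums were identical in 6 of them, the host's sum was above the cluster's in 62 and below it in 39. Cluster features therefore do not show whether D1PAS1 was bound to the precursor or to the host mRNA.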

How the data were processed

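RNA-seq tables hold estimated counts per gene that the authors deposited without scaling, one table per age, with mm10 and cutadapt 3.4 named in the submitters' processing notes. Small RNA tables hold a signal per cluster transcript that the authors normalized before deposit, by a method not given in the sources used here; they have 2 value columns without a header, of which the first was used. eCLIP tables hold unscaled counts that the authors deposited, of cross-link events per sliding window (at most 50 nt); the notes also name HTSeq without a version. Low library totals, above all in the precipitates, limit precision.

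Estimated counts were rounded, filtered with filterByExpr, scaled by TMM and tested per age by genotype with edgeR 4.0.16 (R 4.3.3, quasi-likelihood F-test, two-sided); CPM are TMM-scaled. Genotype effects of neighbouring ages were compared as an interaction over 12 libraries. For small RNA each cluster took its listed transcript with the highest mean over all libraries, and log2(signal + 1) was tested with limma 3.58.1 (trend, two-sided), so that a difference understates the change of low clusters. eCLIP window counts were summed per gene, exon and intron windows apart, and tested with edgeR. Benjamini-Hochberg adjustment ran over all features of a test, with a threshold of 0.05 throughout. Scripts were tested on simulated data.

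The genes named with values per library are the 6 clusters highest in wild-type small RNA (1 of them is not reported here), its 5 largest falls and 5 largest rises, the 5 largest precursor changes at P18 and at P28, and up to 10 called eCLIP features by adjusted p. Members, gene lists and tests were chosen with earlier results of these data known. Host genes were matched by symbol in RefSeq for 112 clusters. Alternatives were DESeq2 1.42.0, library totals, other filters and pseudocounts (0.1 and 10), summed transcripts, the second value column, non-overlapping windows, a replicate block and leaving out each library. The 6 BisMapR samples were not analysed here.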

Additional observations from a re-analysis of the deposited data

Results flagged for a closer look

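The genotype effect on the precursor differed between P14 and P18 for 8 clusters, 5 lower at P18 and 3 higher, by edgeR's interaction test. The differences in log2 fold change, P18 minus P14, were -2.88 for pi-Cdc42ep3, -2.02 for pi-Gm5878, -1.28 for pi-1700016M24Rik, -1.18 for pi-Pou6f1 and -0.43 for pi-Exoc8, and 0.46 for pi-Ppp1r15b, 0.55 for pi-Cmtm4 and 0.78 for pi-Tfcp2l1. Leaving out single libraries gave 2 to 7 lower and 1 to 15 higher. Leaving out any P14 library but the wild-type one numbered 2 brought the lower ones down to 2 or 3, as did leaving out the P18 wild-type library numbered 8 or the P18 knockout library numbered 12; 15 were higher without the P18 wild-type library numbered 9 and 8 without the P18 knockout library numbered 10.

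Between P18 and P28 the genotype effect differed for 18 clusters, 11 lower at P28 and 7 higher. The differences, P28 minus P18, were -3.33 for pi-Luzp1, -2.91 for pi-Lpp, -2.59 for pi-Socs7, -1.98 for pi-Ip6k1, -1.12 for pi-Tmem194, -1.05 for pi-Eya3, -1.01 for pi-Uhrf1bp1, -0.98 for pi-Asb1, -0.95 for pi-Dcaf7, -0.91 for pi-Ctdsp2 and -0.64 for pi-Mlec. They were 0.78 for pi-Cbfa2t2, 0.85 for pi-Wdfy3, 0.87 for pi-Cmtm4, 1.10 for pi-Ccrn4l, 1.18 for pi-Cdc42ep3, 1.31 for pi-1700006A11Rik and 1.70 for pi-Gm5878. So pi-Cdc42ep3 and pi-Gm5878 had effects that grew from P14 to P18 and shrank from P18 to P28, while pi-Luzp1, pi-Lpp and pi-Socs7 differed from P18 only at P28 by these tests. Without the P28 wild-type library numbered 3, 15 were higher. Both comparisons use the P18 libraries, and each age may be its own batch.

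The second value column of the small RNA tables, otherwise unused, had low values above 0 for pi-Mllt6 in the knockout libraries only. It was at 0 in the 3 wild-type libraries and at 0.26, 0.27 and 0.34 in the knockout libraries, a log2 difference of 0.37 on the log2(value + 1) scale (limma, adjusted p = 0.0329). These values lie near the floor of the column, where the highest mean of a genic cluster was 26.16. The sources used here do not say what this column counts.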

How the results depend on the processing

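For precursor RNA, the P14 count of rises was 1 with DESeq2 and 1 without the low-count filter, against 0. At P18 rises were 7 with DESeq2, and with library totals alone there were 11 rises and 8 falls at P18 and 57 rises and 10 falls at P28. With library totals the genotype effect was higher at P18 than at P14 for 9 clusters, and at P28 than at P18 it was higher for 33 and lower for 4. Leaving out single libraries gave 0 to 1 rises and 0 to 0 falls at P14, 0 to 13 rises and 6 to 14 falls at P18, and 13 to 29 rises and 18 to 24 falls at P28. For the difference between P14 and P18 it gave 1 to 15 higher and 2 to 7 lower, and between P18 and P28 5 to 15 higher and 8 to 14 lower. No paired analysis was possible because the RNA-seq columns carry no replicate numbers shared between genotypes.

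For piRNA signal, leaving out single libraries gave 0 to 93 rises and 3 to 14 falls. The second value column gave 1 rise and 2 falls, and turned the direction of pi-Eif2c2 (-2.39), pi-Gm5878 (0.02), pi-Hjurp (-0.39), pi-Wdfy3 (0.09) and pi-Zfp382 (0.09). Division by library totals gave 76 rises and 7 falls and turned pi-Zfp382 (0.08). A replicate block gave 59 rises and 7 falls. Same-numbered small RNA samples deviated from their group means with correlations of 0.65, -0.89 and 0.40, and same-numbered eCLIP samples with 0.02, -0.10 and -0.02. Differently numbered small RNA samples reached 0.88 (wild type 2 and knockout 1) and 0.86 (wild type 3 and knockout 2). Deviations from a mean of 3 libraries depend on each other, so these values cannot decide whether the numbers pair the samples.

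For eCLIP, exon enrichments numbered 3 without the filter, 3 with the replicate block and 2 with non-overlapping windows, and exon depletions 1 with the replicate block and 0 with non-overlapping windows. Intron enrichments numbered 8 with DESeq2, 3 without the filter, 2 with the replicate block and 2 with non-overlapping windows, and intron depletions 12 without the filter. Leaving out single libraries gave 3 to 7 exon enrichments, 0 to 1 exon depletions, 2 to 4 intron enrichments and 3 to 5 intron depletions; exon enrichments were 3 without precipitate 1 or any input, and intron enrichments 2 or 3 without precipitate 3 or any input. The cause of these moves was not tested. Depth limits eCLIP, where precipitate sums were as low as 12, 8 and 8 window counts behind an enrichment. Behind a depletion they were as low as 0, 0 and 3, in the introns of pi-Hjurp.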

Other observations

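In the second small RNA value column 102 of the 114 genic clusters had a mean under 1, and 2 clusters fell in the knockout. pi-Eif2c2 had 22.97, 19.5 and 13.66 in wild type and 3.26, 1.96 and 2.95 in the knockout (log2 difference -2.39, limma, adjusted p = 0.0238), although its first-column signal did not pass the threshold (0.17, adjusted p = 0.292). pi-Zfp280b had 16.3, 19.45 and 17.82 against 10.29, 9.13 and 10.86 (-0.77, limma, adjusted p = 0.0353). In both, every knockout library was below every wild-type library.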
